A study of Mus musculus with 6 samples.

Results

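MHC class I molecules carry peptides from proteins made inside the cell to its surface. The report covers 10 genes that cut, carry and load these peptides: Psmb8, Psmb9, Psmb10, Tap1, Tap2, Erap1, Tapbp, Tapbpl, B2m and Nlrc5. They were chosen by name, and every probe set whose only annotated gene was 1 of them was kept. This gave 18 of the 45037 non-control probe sets on the array and 10 of the 18193 genes that had a probe set of their own. The samples were 6 RNA pools of long-term haematopoietic stem cells (LT-HSCs). Marrow of 8-week-old mice on a mixed background was sorted for the markers Lin-Sca1+CD150+CD48-. The 3 dKO arrays came from MxCre c-myc f2 N-myc f2 mice, each array a pool of 3 animals. The 3 control arrays came from c-myc f2 N-myc f2 mice without the Cre transgene, each a pool of 2 animals (1 control label spells the second allele "M-Myc f2"). Mice of both groups were given pI-pC, a double-stranded RNA mimic that induces interferon, on 2 days, and marrow was taken 3 days after the last dose. The Mx promoter that drives Cre is itself switched on by interferon, so Cre can act in any cell that responds to interferon and not in LT-HSCs alone. Since only the dKO mice carried Cre, the effects of Cre and of the loss of both Myc genes cannot be told apart.

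The steps of the pathway follow each other in space. Proteasomes in the cytosol cut proteins into peptides, and under interferon 3 catalytic subunits of the standard particle are replaced by Psmb8, Psmb9 and Psmb10 to give the immunoproteasome. The Tap1 and Tap2 transporter carries peptides into the endoplasmic reticulum, where Erap1 trims them. Tapasin (Tapbp) bridges the transporter and the class I molecule and helps to select tightly bound peptides, Tapbpl is a tapasin-related peptide editor, B2m is the light chain of every class I molecule, and Nlrc5 is the transactivator of class I genes.

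The 4 genes Psmb9, Tap1, Psmb8 and Tap2 lie next to each other in the class II region of the mouse MHC on chromosome 17. Tap1 and Psmb9 point away from each other, and in human cells this pair is known to be driven from a shared bidirectional promoter. In RefSeq (GRCm38.p6) 225 bases lay between their start sites, so that their promoter windows, taken as 250 bases before to 50 bases after each start, had 275 bases in common. Windows were found for 7 of the 10 genes. The shared Tap1 and Psmb9 stretch is shown because both genes are described below, and the B2m and Erap1 windows because they held matches to a motif of interferon regulatory factors. Capitals mark every match, on either strand, to the motifs searched: the interferon regulatory factor core GAAANNGAA, the STAT motif TTCNNNGAA, the E-box CACGTG, the CRE half-site TGACG, and the NF-kB consensus. Neighbouring matches run together where they overlap.
Tap1 and Psmb9 shared stretch, chr17:34187306-34187580, Tap1 strand (+): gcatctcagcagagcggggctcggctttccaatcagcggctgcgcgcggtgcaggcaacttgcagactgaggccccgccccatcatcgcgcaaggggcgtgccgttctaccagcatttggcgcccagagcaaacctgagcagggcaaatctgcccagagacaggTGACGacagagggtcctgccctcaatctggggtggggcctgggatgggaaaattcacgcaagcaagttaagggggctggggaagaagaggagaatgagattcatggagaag
B2m window, chr2:122147437-122147736, strand +: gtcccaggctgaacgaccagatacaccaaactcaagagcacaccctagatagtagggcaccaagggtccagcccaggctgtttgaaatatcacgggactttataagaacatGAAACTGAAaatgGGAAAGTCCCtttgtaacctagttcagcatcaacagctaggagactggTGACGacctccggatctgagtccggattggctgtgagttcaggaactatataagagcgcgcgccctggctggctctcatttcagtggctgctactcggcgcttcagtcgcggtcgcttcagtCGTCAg
Erap1 window, chr13:74639603-74639902, strand +: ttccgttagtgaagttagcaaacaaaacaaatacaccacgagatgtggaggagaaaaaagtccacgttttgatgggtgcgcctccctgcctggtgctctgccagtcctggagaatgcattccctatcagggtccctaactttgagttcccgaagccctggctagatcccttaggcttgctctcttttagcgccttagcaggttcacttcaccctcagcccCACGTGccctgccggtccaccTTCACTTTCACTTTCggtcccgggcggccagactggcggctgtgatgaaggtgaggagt

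The interferon regulatory factor core was found in 2 of the 7 windows, against 8.56% of 32851 RefSeq promoter windows of the same length. In B2m it lay at -139 to -131 from the start site, with the NF-kB consensus just after it at -126 to -117. In Erap1 it matched at -9 to -1 and again, overlapping, at -3 to 6. The NF-kB consensus was in 1 of 7 windows, against 1.62% of all windows. The STAT motif was in 1 of 7, that of Psmb8 at -97 to -89, against 8.3% of all. The E-box, the core sequence that Myc proteins bind, was in 2 of 7 (Psmb10 and Erap1), against 7.15%. The CRE half-site was in 3 of 7, against 20.8%, but the Tap1 and Psmb9 matches were the same bases. These matches are letters in a window and were not tied to any change in expression.

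The values are deposited log2 RMA expression values, so a difference of 1 is a doubling, and all 6 arrays had medians between 5.90 and 5.97. Arrays correlated at 0.974 to 0.981 inside a group and at 0.956 to 0.969 across groups. The Myc probe set 1424942_a_at averaged 7.43 ± 0.30 in dKO and 10.36 ± 0.23 in control arrays (SD, n = 3 each), with a limma adjusted p of 0.00137. Of 3 Mycn probe sets, 2 were lower in dKO arrays (adjusted p of 2.34e-05 and 0.00938, limma), and the remaining one, at 4.32 against 4.40, did not pass. Set against the sort gates, Slamf1 (CD150) averaged 9.24 in dKO and 9.16 in control arrays, but Cd48, used to exclude cells, was 1.16 higher on the log2 scale in dKO (adjusted p = 0.0214, limma). Of 10 measured genes of the LT-HSC list, 2 were higher (Gata2 and the excluded Cd48) and 3 lower (Kit, Hlf and Tek) in dKO arrays. Counting each gene once through its brightest probe set, 4.49% of all genes were higher and 3.56% lower. The 3 probe sets for a bacterial transcript not present in mouse cells (TrpnX) read 2.13 to 3.92, and a group mean in or below that range was treated as background. The Gapdh 3' minus 5' difference, a sign of RNA integrity and amplification, was 2.39 to 2.47 in dKO and 2.12 to 2.36 in control arrays. Its part in the results below was not tested.

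Most of the pathway was higher in dKO LT-HSCs. Of the 18 probe sets, 8 rose, 0 fell and 10 did not pass the threshold, an adjusted p of 0.05 in limma with Benjamini-Hochberg adjustment over all 45037 probe sets. Over the whole array 6.99% of probe sets passed, 3.57% higher and 3.41% lower. At an unadjusted p under 0.05, 13 of the 18 were higher and again 0 were lower, against 10.4% and 11.3% of all probe sets. Counting each gene once, through its brightest probe set, 6 genes rose: Psmb8, Psmb9, Psmb10, Tap2, Erap1 and Tapbp, against 4.49% of all genes. Tap1, Tapbpl, B2m and Nlrc5 did not pass. Of all 18 probe sets, 13 had every dKO array above every control array, against 13.4% of the array's probe sets. The brightest probe sets of all 10 genes were among them, but the share over brightest probe sets alone was not computed. The median log2 change of the 18 probe sets was 0.63, against -0.01 over all probe sets, and single changes ran from -0.02 to 1.06. In RNA from pooled sorted cells, more cells of one kind and more RNA per cell cannot be told apart.

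**Figure D1:**
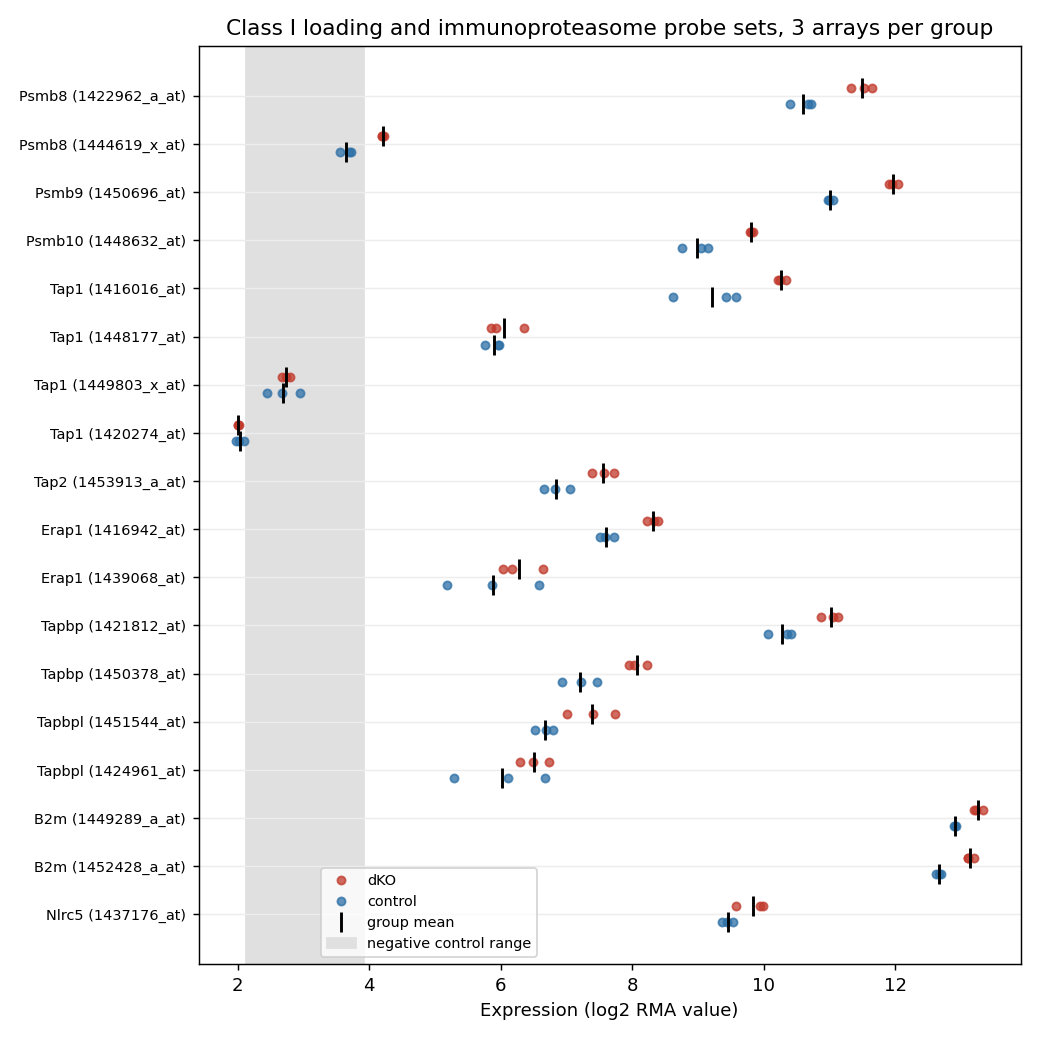
Expression of the 18 probe sets as log2 RMA values (x axis), with dKO arrays in red above control arrays in blue, 3 arrays per group, and group means as black bars; the grey band, 2.13 to 3.92, spans the bacterial negative controls. B2m sits highest, near 13, and the dKO arrays lie to the right of all control arrays for 13 of the 18 probe sets.

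The immunoproteasome subunits all rose. Psmb9 (1450696_at), the subunit that takes the place of Psmb6, read 12.04, 11.94 and 11.91 in dKO arrays, against 11.05, 10.97 and 10.99 in control arrays. All dKO values were above all control values, with an SD of 0.07 in dKO and 0.04 in control arrays (n = 3 each). The log2 change was 0.96 ± 0.12 (SE), or 1.94-fold, with a limma adjusted p of 0.00775.

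Psmb8 (1422962_a_at), which replaces Psmb5, read 11.32, 11.64 and 11.53 in dKO arrays, against 10.72, 10.66 and 10.39 in control arrays. The groups did not overlap, and the change was 0.90 ± 0.16, or 1.87-fold (adjusted p = 0.0197, limma). A second Psmb8 probe set, 1444619_x_at, read 4.23, 4.20 and 4.19 in dKO arrays and 3.72, 3.55 and 3.70 in control arrays. It passed the test (adjusted p = 0.046, limma, and 0.0559 with a trended robust prior), but the control mean lay inside the negative control range, so it gives only a bound of at least 1.22-fold.

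Psmb10 (1448632_at), which replaces Psmb7, read 9.80, 9.83 and 9.79 in dKO arrays, against 8.75, 9.04 and 9.15 in control arrays. The dKO arrays were almost equal and the control arrays spread more widely, with no overlap. The change was 0.83 ± 0.15, or 1.77-fold (adjusted p = 0.0218, limma).

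The standard subunits that these 3 replace were also higher, 1 of them past the threshold. Psmb5 rose by 0.62 ± 0.14 (adjusted p = 0.044, limma, and 0.0538 after quantile normalization), Psmb6 was 0.61 ± 0.15 higher without passing (adjusted p = 0.0593), and Psmb7 was 0.33 ± 0.13 higher without passing (adjusted p = 0.206). To compare the changes, the standard subunit was subtracted from its counterpart on each array. Psmb10 minus Psmb7 was -0.24, -0.20 and -0.32 in dKO arrays and -1.09, -0.74 and -0.44 in control arrays, a difference of 0.50 ± 0.19 (SE). Psmb9 minus Psmb6 was 2.13, 2.26 and 2.18 in dKO arrays and 1.91, 1.63 and 2.01 in control arrays, a difference of 0.35 ± 0.12. In both pairs the groups did not overlap, and the exact two-sided permutation test gave p = 0.1 (adjusted over the 3 pairs, 0.15), the smallest p that 3 against 3 arrays allow.

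Psmb8 minus Psmb5 was 2.27, 2.68 and 2.60 in dKO arrays and 2.22, 2.28 and 2.21 in control arrays. Here dKO replicate 1 lay among the control arrays, and the difference of 0.28 ± 0.13 had an exact permutation p of 0.2 (adjusted 0.2). With the mean over all probe sets of each gene in place of the brightest one, the Psmb8 difference was 0.10. That mean takes in 1444619_x_at, whose control mean lay inside the negative control range. With the brightest probe sets, the Psmb8 difference without dKO replicate 1 was 0.40, and the Psmb10 difference without control replicate 1 was 0.33. With 3 arrays a group, no pair could pass a threshold of 0.05.

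**Figure D2:**
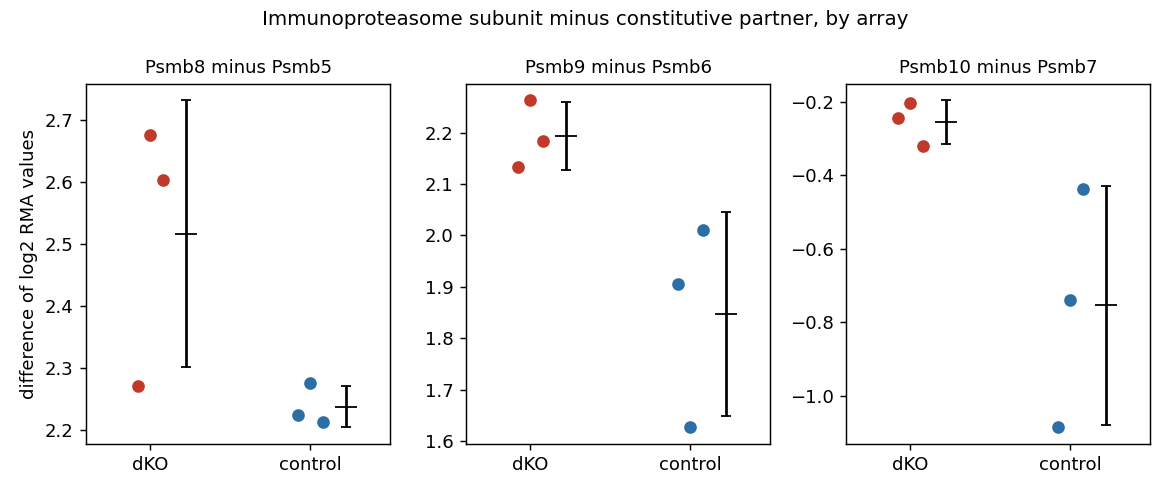
Difference of log2 RMA values between each immunoproteasome subunit and the standard subunit it replaces (y axis, a separate scale in each panel), by array, dKO left and control right, with the mean and SD beside the points. The dKO points lie above all control points for Psmb9 minus Psmb6 and Psmb10 minus Psmb7, while 1 dKO point falls among the controls for Psmb8 minus Psmb5.

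Of the transporter genes, Tap2 passed the threshold and Tap1 did not; the difference between them was not tested. Tap2 (1453913_a_at) read 7.38, 7.72 and 7.57 in dKO arrays, against 6.66, 7.06 and 6.82 in control arrays. The groups did not overlap, and the change of 0.71 ± 0.16, or 1.64-fold, passed narrowly (adjusted p = 0.0464, limma, and 0.0531 with array weights). Tap1 (1416016_at) read 10.34, 10.25 and 10.22 in dKO arrays, against 9.58, 9.43 and 8.61 in control arrays. Its change, 1.06 ± 0.26 or 2.08-fold, was the largest among the 18 probe sets, yet its adjusted p was 0.0549 (limma). Control replicate 3 stood well below the other controls, and without it the difference was 0.76 (adjusted p = 0.0501, limma).

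The remaining 3 Tap1 probe sets showed no such difference. Probe set 1448177_at read 6.35, 5.93 and 5.85 in dKO arrays and 5.76, 5.96 and 5.97 in control arrays, with overlapping groups and a change of 0.15 ± 0.17 (adjusted p = 0.699, limma). The other two, 1449803_x_at and 1420274_at, had group means in or below that background range in dKO and control arrays alike and carry no measurable level. Which transcript stretch each probe set reads was not analysed here.

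Erap1, the aminopeptidase of the endoplasmic reticulum, rose by its brighter probe set. Probe set 1416942_at read 8.23, 8.33 and 8.39 in dKO arrays, against 7.59, 7.72 and 7.51 in control arrays. The groups did not overlap, and the change was 0.71 ± 0.13, or 1.64-fold (adjusted p = 0.0236, limma). The dimmer 1439068_at read 6.16, 6.64 and 6.04 in dKO arrays and 5.18, 6.59 and 5.86 in control arrays. There control replicate 2 lay among the dKO arrays, and the change of 0.40 ± 0.35 did not pass (adjusted p = 0.583, limma).

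Tapasin was the only member with more than 1 probe set above background and all of them past the threshold. Tapbp 1421812_at read 11.13, 11.05 and 10.87 in dKO arrays, against 10.35, 10.06 and 10.42 in control arrays. Tapbp 1450378_at read 8.23, 8.03 and 7.95 in dKO arrays, against 7.23, 6.93 and 7.46 in control arrays. Neither overlapped, and both placed dKO replicate 1 highest and control replicate 2 lowest. The changes were 0.74 ± 0.16 (1.67-fold, adjusted p = 0.0353, and 0.0567 after quantile normalization) and 0.86 ± 0.18 (1.82-fold, adjusted p = 0.0324), both by limma.

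Its relative Tapbpl was higher without passing. Tapbpl 1451544_at read 7.40, 7.01 and 7.73 in dKO arrays, against 6.52, 6.79 and 6.69 in control arrays, with no overlap. The change of 0.71 ± 0.20 was as large as that of Tap2 or Erap1, but the dKO arrays spread more (SD 0.36), and the adjusted p was 0.0897 (limma). Tapbpl 1424961_at read 6.49, 6.74 and 6.29 in dKO arrays and 5.29, 6.11 and 6.67 in control arrays, which overlapped (adjusted p = 0.473, limma).

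B2m changed by a smaller amount at the brightest level of the group. B2m 1452428_a_at read 13.20, 13.10 and 13.10 in dKO arrays, against 12.66, 12.69 and 12.62 in control arrays. B2m 1449289_a_at read 13.33, 13.23 and 13.19 in dKO arrays, against 12.89, 12.92 and 12.90 in control arrays. Every dKO array was above every control array in both, with differences of 0.48 ± 0.12 (adjusted p = 0.0664) and 0.35 ± 0.12 (adjusted p = 0.151) that did not pass in limma. The call depended on the setting: 1452428_a_at passed in 4 of 12 alternatives, with quantile normalization (adjusted p = 0.0305) among them, and 1449289_a_at in 1 of 12 (trended robust prior, adjusted p = 0.00311). The highest value on any array was 13.8, so these probe sets read near the top of the deposited scale.

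Nlrc5 (1437176_at), the transactivator, read 9.95, 9.99 and 9.57 in dKO arrays, against 9.54, 9.37 and 9.44 in control arrays. The groups did not overlap, but dKO replicate 3 lay only just above control replicate 1. The difference of 0.39 ± 0.16 did not pass (adjusted p = 0.216, limma), and its 95% interval, 0.01 to 0.76, does not exclude a change of the size seen in Tap2 or Erap1.

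**Figure D3:**
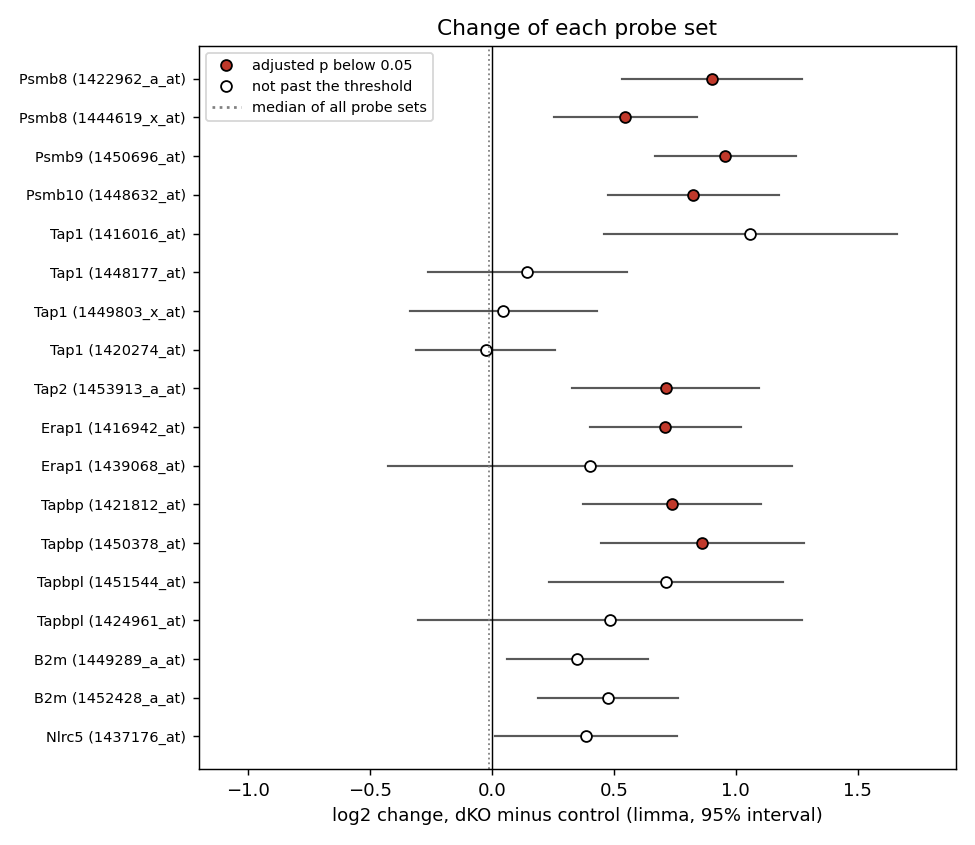
The log2 change of each probe set, dKO minus control, with the 95% interval of the limma fit (x axis); filled points passed the adjusted p threshold of 0.05, and the dotted line is the median of all probe sets, -0.01. The filled points lie between 0.55 and 0.96, and Tap1 at 1.06 has a wide interval and stays unfilled.

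Calls were recomputed with each array left out in turn. Psmb9 kept its call without any single array, with an adjusted p of at most 0.0347 (limma). Psmb8 (1422962_a_at) lost it without dKO replicate 2 or 3 and without control replicate 2 or 3, at adjusted p of up to 0.0685. Psmb10 and Tapbp (1450378_at) kept it only without control replicate 3, and otherwise reached 0.0725 and 0.104. Tap2, Erap1, the other Tapbp probe set and the dim Psmb8 probe set lost it whichever array was left out, with adjusted p between 0.0557 and 0.132. The direction of these 8 probe sets stayed the same. Without 1 array the whole array had 1338 to 1674 calls in place of 3146, and the members had 1 to 3 in place of 8.

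**Figure D4:**
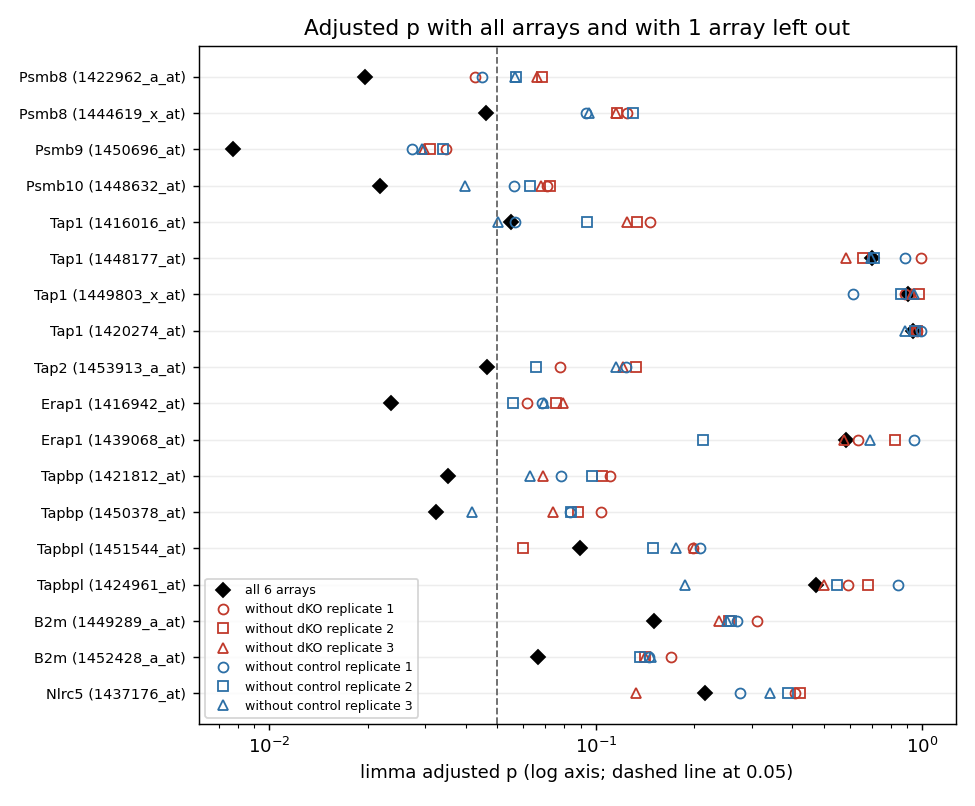
The limma adjusted p of each probe set (x axis, log scale) with all 6 arrays (black diamonds) and with 1 array left out (red for dKO, blue for control replicates); the dashed line marks 0.05. Psmb9 is the only probe set whose 7 symbols all lie left of the line.

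The genes that act beside these 10 were compared in the same fit, from 6 lists of neighbouring steps, by the brightest probe set of each gene. The list of class I heavy chains also holds relatives that carry no peptide, such as Cd1d1, Mr1 and Fcgrt. It stayed short of the threshold: of 12 measured, 0 rose and 0 fell in limma. Their median log2 change was 0.07 (over all genes, 0.01), but single changes ran from -1.24 (H2-T3) to 0.63 (H2-Q5). Of the 12, 2 (H2-Q2 and H2-Q10) had both group means at background. At an unadjusted p under 0.05, 2 were higher and 2 lower, against 12.3% and 10.8% of all genes. The smallest p-values belonged to Cd1d1, a lipid-presenting relative, at -0.73 (adjusted p = 0.0842), H2-Q5 at 0.63 (adjusted p = 0.145) and H2-T24 at -0.46 (adjusted p = 0.188). Of all 27 heavy chain probe sets, 1 rose (H2-K1 1427746_x_at, by 0.66, adjusted p = 0.024) and 1 fell (Cd1d1 1449131_s_at, by 1.22, adjusted p = 0.0195). The brightest probe set of H2-K1 was at 0.32 and that of H2-D1 at 0.39, both short of the threshold. In both, every dKO array was above every control array, as in 13.4% of the array's probe sets. The next brightest H2-D1 probe set, 1426324_at, was at -0.14 with overlapping groups, and was the only H2-D1 probe set lower in dKO arrays. The remaining H2-D1 probe sets ran from 0.04 (1425614_x_at) to 0.62 (1450170_x_at, adjusted p = 0.079, limma), none past the threshold. All H2-K1 probe sets were higher, from 0.17 to 0.66. These H2 genes are close copies of each other, so a probe set may read more than its own gene, and the other 12 listed genes were not analysed here.

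Of 11 measured genes listed as folding partners of class I in the endoplasmic reticulum, 4 rose and 0 fell in limma, with a median change of 0.43. Over all genes 4.49% rose and 3.56% fell. The 4 were Hspa5 (BiP, a general chaperone), up by 1.01 ± 0.15 (adjusted p = 0.0112), Calr (calreticulin, in the loading complex), up by 0.84 (adjusted p = 0.015), Pdia3 (ERp57, bound to tapasin), up by 0.78 (adjusted p = 0.0194), and Sec61a1 (the translocation channel), up by 0.67 (adjusted p = 0.0243). At an unadjusted p under 0.05, 8 of the 11 were higher and 2 were lower, against 12.3% and 10.8% of all genes. The 2 lower were Ero1a, at -0.48, and Sppl3, a protease rather than a folding helper, at -0.38. The 4 that rose serve many secretory and membrane proteins besides class I.

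Among 9 proteasome activators and assembly factors, 1 rose and 1 fell, where 4.49% of all genes rose and 3.56% fell. Their median change was 0.38. Pomp, the chaperone that assembles immunoproteasomes as well as standard ones, rose by 0.57 (adjusted p = 0.0405, limma, and 0.0591 after quantile normalization). Psmg2, which helps the assembly of the alpha ring, fell by 1.0 (adjusted p = 0.0275, limma), but its other probe sets read -0.17 and -0.57 and did not pass. Psme4 was at 0.50 and did not pass (adjusted p = 0.109). Of 9 listed peptidases of the cytosol and endosomes, which trim or destroy peptides, Nrdc and the endosomal Lnpep were not analysed here. The 7 measured showed 0 higher and 0 lower in limma, also at an unadjusted p under 0.05, with a median of 0.03. Their smallest p-values were those of Tpp2 at -0.22, Ide at 0.28 and Npepps at 0.17.

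Of 15 measured transcription factors that bind class I promoters, 3 rose and 1 fell, with a median of 0.17. Over all genes 4.49% rose and 3.56% fell. Stat2, which with Irf9 is part of the complex that carries the type I interferon signal, rose by 1.47 ± 0.26 (adjusted p = 0.0203, limma). Its dimmer probe set, 1450403_at, was 0.89 higher without passing (adjusted p = 0.121, limma). Irf9 rose by 1.07 ± 0.25 (adjusted p = 0.0492, limma, and 0.0558 after quantile normalization). Irf1, an activator of Tap1 and Psmb9 transcription, rose by 0.74 ± 0.14 (adjusted p = 0.0275). Rfx5, a subunit of the complex on which Nlrc5 acts, fell by 0.62 ± 0.14, at the threshold itself (adjusted p = 0.05 after rounding). Over the 6 lists, 9 genes rose and 2 fell, and without 1 array 1 to 4 rose and 0 to 1 fell. Hspa5 kept its call without any single array.

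**Figure D5:**
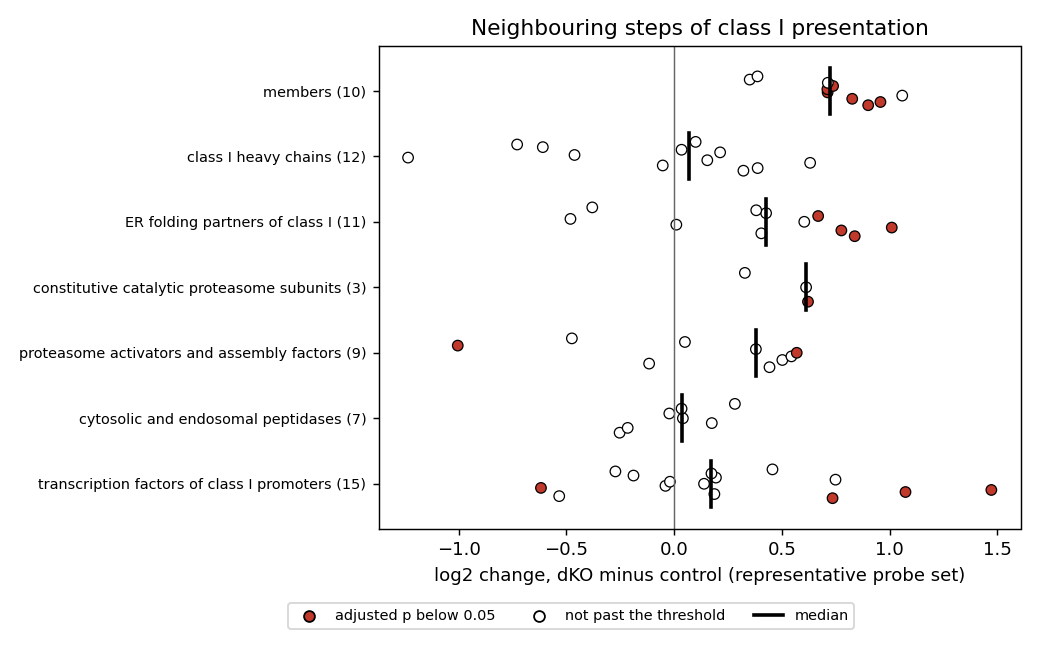
The log2 change, dKO minus control, of the brightest probe set of each gene (x axis) in the 10 members and in 6 lists of neighbouring steps, with the number measured in brackets; filled points passed the adjusted p threshold of 0.05 and black bars are medians. The members' median, 0.73, lies right of every list's median, and heavy chains and peptidases have no filled point.

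The genes on either side of the chromosome 17 cluster belong to class II presentation, which loads peptides from outside the cell. In RefSeq order, passing over predicted genes, H2-DMa, H2-DMb2 and H2-DMb1 come before Psmb9, and H2-Ob, H2-Ab1 and H2-Aa follow Tap2. H2-DMb2 rose by 1.21 (adjusted p = 0.0167, limma), H2-Ab1 by 1.17 (adjusted p = 0.0498) and H2-Aa by 2.02 (adjusted p = 0.0061). H2-DMa was 0.90 higher without passing (adjusted p = 0.0861), H2-Ob was at 0.17 (adjusted p = 0.846), and H2-DMb1 was not analysed here. H2-Aa and H2-Ab1 are also among the macrophage and dendritic cell markers below, where their dimmer probe sets, not all of which passed, are given.

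Markers of other blood cells moved between the groups as well, in a comparison where 4.49% of all genes rose and 3.56% fell. At an unadjusted p under 0.05 these shares were 12.3% and 10.8%. Of 10 macrophage and dendritic cell markers, 5 rose in dKO (Itgax by 2.86, H2-Aa by 2.02, C1qb by 1.79, Cd74 by 1.77 and H2-Ab1 by 1.17), and 0 fell in limma, with 1 lower at an unadjusted p under 0.05. Their mean level was 6.54 to 6.70 in dKO and 5.48 to 5.79 in control arrays. Csf1r, C1qa, C1qc, Siglech and Adgre1 did not pass. None of the 10 was at background in both groups. Adgre1 averaged 3.74 in dKO arrays, inside the negative control range, and 4.20 in control arrays. Of 7 T and NK cell markers 1 rose (Klrk1, at least 4.03-fold, its control mean being at background), with a mean level of 5.12 to 5.45 in dKO and 4.82 to 4.92 in control arrays, and Ncr1 had both means in the negative range. Of 5 B cell markers 0 passed in limma, also at an unadjusted p under 0.05, with a mean level of 5.21 to 5.61 in dKO and 5.08 to 5.26 in control arrays. Of 6 megakaryocyte markers 3 rose (Ppbp, Itga2b and Pf4) and 1 fell (Vwf), with a mean level of 9.20 to 9.51 in dKO and 8.05 to 8.30 in control arrays. Of 7 granulocyte markers 0 passed (2 lower at an unadjusted p under 0.05), with 5.35 to 6.51 in dKO and 6.15 to 7.31 in control arrays. Of 5 erythroid markers 1 fell (Klf1, by 1.64). Of 5 endothelial and stromal markers 0 passed, with 1 higher and 1 lower at an unadjusted p under 0.05. They were Col1a1, at 2.91 (adjusted p = 0.0603, limma), and Emcn, at -0.40. Col1a1 read 8.33, 8.20 and 11.03 in dKO arrays, against 5.86, 6.71 and 6.26 in control arrays. The mean level of the endothelial and stromal markers was 6.18 to 6.51 in dKO and 5.68 to 5.92 in control arrays. The part of these cells in the results was not tested.

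Across the 6 arrays the median of the 10 genes, each centred on its own mean, was 0.31, 0.39 and 0.38 in dKO arrays and -0.38, -0.32 and -0.38 in control arrays. The arrays of a group thus differed by less than 0.1 in this summary. The 5 genes closest to this profile, by root mean square difference over the 6 arrays among 18183 other genes, were Ap2m1, Lrrfip1, Pgam1, Skap2 and Tbxa2r, with differences of 0.0273 to 0.043. Their own changes were 0.68 to 0.79. A profile of 6 arrays in 2 groups mostly holds the size of the group difference, so many genes can come close to it.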

How the data were processed

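Expression was measured on 6 arrays, 3 from dKO and 3 from control LT-HSC pools, each array a separate pool of mice. RNA was purified with Trizol and amplified over 2 rounds, per the labels' protocols. The authors deposited 1 log2 expression value per probe set and array, made with RMA per the submitters' processing notes; its version was not given in the sources used here. RMA usually brings arrays to a shared distribution, which can hide a shift common to most genes. The platform annotation gave 34945 of 45037 non-control probe sets a single gene, 932 several and 9160 none; 34741 were matched to RefSeq. Promoters came from RefSeq (GRCm38.p6).

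The dKO arrays were compared with the control arrays in limma 3.58.1 (R 4.3.3), with Benjamini-Hochberg adjustment over all non-control probe sets and 4 residual degrees of freedom; the number of arrays limits the precision. The script was tested on simulated data. Each gene was counted through its brightest probe set (highest mean over 6 arrays). Named genes were all 10 members, the 3 genes with the smallest p in each of 6 lists, genes in counts of 5 or fewer, and the 5 genes nearest to the members' profile; H2-K1, H2-D1 and the neighbouring class II genes were named after their values were seen. Members, lists and motifs were chosen with earlier results of these data known. Alternatives were other scalings, a filter on level, other priors, array weights, a replicate block, probe set means and leaving out each array.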

Additional observations from a re-analysis of the deposited data

How the results depend on the processing

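No result changed direction for any called member under quantile normalization, centring each array on its median, a mean level above 5, a trended robust prior, array weights, a replicate block or leaving out 1 array. The members' count of 8 higher was 8 to 10 under the first 5 of these, 6 genes with probe sets averaged, and 1 to 3 without 1 array; none was lower. The median change of 0.63 was 0.69 after centring, 0.71 above level 5 and 0.57 to 0.68 without 1 array. Calls over the whole array, 3146, were 1338 to 1674 without 1 array. Genes of the 6 lists called higher, 9, were 14 with the trended robust prior, 6 after quantile normalization (Psmb5, Pomp and Irf9 lost their calls) and 1 to 4 without 1 array; those called lower, 2, were 1 after centring, 1 with array weights and 0 to 1 without 1 array. Over all probe sets, same-numbered arrays did not deviate together (correlations -0.02, 0.00 and 0.01). A correlation over the whole array cannot exclude a pairing that shows in some genes only. With a replicate block, calls were 1530 over the array, 1 member (Psmb9) and 2 list genes higher, 0 lower. Tap1 (1416016_at) passed in 4 of 12 alternatives, B2m 1452428_a_at in 4 and 1449289_a_at in 1, and Tapbpl and Nlrc5 in 0. Irf9 also lost its call with array weights (adjusted p = 0.0708, limma). Partner differences were not run with the level filter, prior, weights or block, which do not enter them. With 2 arrays in a group fewer calls follow from fewer samples; other causes were not tested.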
